A study of Mus musculus with 12 samples.

Results

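Gastrodin given at 5 mg/kg/day was compared with vehicle in hearts of sham-operated mice. The libraries were chosen by their titles, the pair labelled sham 5 mg (numbers 9 and 10) against the pair labelled sham 0 mg (numbers 7 and 8), which makes 4 of the 12 heart libraries of the series. All animals were wild-type C57BL/6 mice at postnatal day 45. Sham animals underwent the control surgery and were given gastrodin or vehicle, called menstruum in the labels, by the gastric route for 7 days. Other groups of 2 libraries each are shown for reference. They are sham 50 mg (50 mg/kg/day, numbers 11 and 12), AngII vehicle (numbers 1 and 2) and AngII 5 mg (numbers 3 and 4). AngII 50 mg (numbers 5 and 6) is shown in figures and for overlapping genes. The AngII arm carries a hypertrophy model made with angiotensin II. All 12 libraries entered the fit, so the groups outside the comparison also shape its p-values. The labels name the heart and give neither sex nor a chamber, and they do not state whether the libraries of a group are different animals; p-values here therefore reflect the spread among these libraries alone, which may be technical.

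Gastrodin is a phenolic glucoside, the main named constituent of the orchid Gastrodia elata. A sham operation repeats the surgery without the treatment that makes the heart enlarge, so drug and vehicle are compared there in muscle without that stimulus. Adult heart muscle takes most of its energy from fatty acids, which are imported by carriers, activated to acyl-CoA, moved into mitochondria through carnitine and cut down by beta-oxidation. The kinase PDK4 holds back the use of glucose by switching off pyruvate dehydrogenase. Heart RNA also carries transcripts of vessel cells, fibroblasts, macrophages and of red cells left in the chambers.

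The 4 libraries held 73321325 and 77966222 counts in vehicle and 70788937 and 63488815 at 5 mg. Mitochondrial transcripts took 71.7 to 74.5% of the counts, their nuclear copies 17.9 to 19.1% and ribosomal RNA 0.0888 to 0.959%, so that all other genes rest on 6.34 to 10.4% of the counts. In these libraries a count of 4 occurred 2489 times against 830 for a count of 3, and a count of 8 occurred 1470 times against 406 for a count of 7, so small counts peak in steps of 4 and may not be numbers of reads; how the matrix was counted is not given in the labels. Heart muscle transcripts were abundant in all 4: Tnnt2, the cardiac troponin T gene, stood at 1299 and 1100.2 CPM in the vehicle libraries and 1197 and 1060.4 CPM in the 5 mg libraries (CPM, counts scaled to a common library size with edgeR's factors), and Myl2, the ventricular myosin light chain gene, at 771 and 691 CPM in vehicle and 811 and 594 CPM at 5 mg. Myl7, its atrial counterpart, stood at 0.0771 and 0.05 CPM in vehicle and 0 and 0 CPM at 5 mg, at or near 0 in all 4. Over the 7256 genes whose log2 CPM averaged 1 or more, log2 CPM correlated at 0.946 between the vehicle libraries, 0.938 between the 5 mg libraries and 0.932 to 0.952 between libraries of different groups, so the groups did not separate from each other on this measure.

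Number 10 stood apart in transcripts of plasma proteins made by the liver. The summed level of 15 such genes was 3.34 and 4.27 CPM in the vehicle libraries, 3.90 CPM in number 9 and 75.1 CPM in number 10, and all 15 were highest there among the 4. Albumin (Alb) stood at 0.926 and 0.1 CPM in vehicle and 0.155 and 30.3 CPM at 5 mg. High values also occurred elsewhere in the series: the same sum was 53.3 and 58.0 CPM in sham 50 mg and 3.19 and 48.8 CPM in AngII vehicle. Of the 15, 13 had an unadjusted p under 0.05 for being higher at 5 mg, but the list's median log2 fold change, 8.57 as fitted and 4.21 with genes absent from vehicle put at a floor of 12 counts, was 0 without number 10. These genes are not taken as a property of the 5 mg group, and some results below are also given without number 10. Others depend on it too. Without it the log2 fold change of Acta1 went from -0.34 to 0.04 and that of Igf2r from 0.09 to -0.47.

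At 5 mg, 3 genes fell and none rose. Baiap2l1, which encodes a membrane-bending adaptor that links the plasma membrane to actin, the predicted gene Gm49394 inside the Igf2 locus and the pseudogene Gm2274 passed edgeR's quasi-likelihood test, adjusted after Benjamini and Hochberg over 16723 genes, 0.0179% of those tested. At an unadjusted p under 0.05, 374 genes lay higher (2.24%) and 315 lower (1.88%). In 2345 genes (14%) both 5 mg libraries lay above both vehicle libraries, and in 2611 (15.6%) both lay below. The median log2 fold change over all genes was 0, and 80.15% of genes lay within 1 log2 unit of it; the median standard error was 0.533, or 0.370 among the 7256 better measured genes. With 1 of the 4 libraries left out, no gene passed without vehicle number 7 or 8 or 5 mg number 9 (549, 825 and 765 at an unadjusted p under 0.05), and 3 other genes passed without number 10. None passed with all counts divided by 4 and rounded (454 at an unadjusted p under 0.05), a setting chosen after seeing the data, and DESeq2's Wald test called 32.

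**Figure D1:**
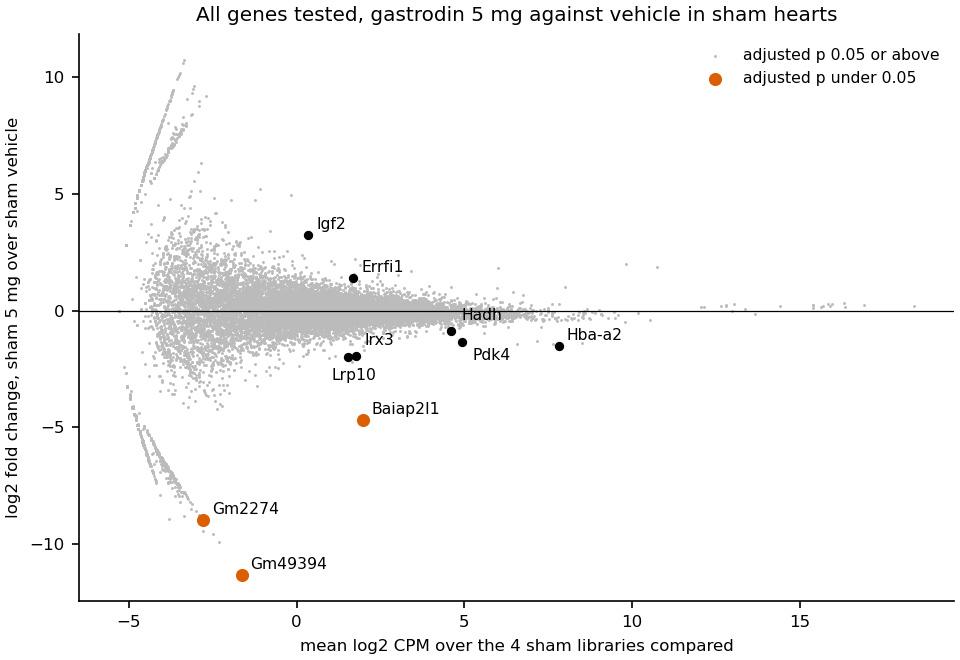
Log2 fold change of sham 5 mg over sham vehicle (y axis) against the mean log2 CPM over the 4 libraries (x axis) for each of the 16723 genes tested. The 3 genes with an adjusted p under 0.05 are in orange and all lie below 0; the rest are grey, with 7 genes named in the text in black.

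Baiap2l1 stood at 27.8 and 14.1 CPM in the vehicle libraries and 1.11 and 0.508 CPM in the 5 mg libraries. Both treated libraries lay far below the lower of the vehicle libraries, and the log2 fold change was -4.71 ± 0.645 (SE), edgeR adjusted p = 0.0360. At 50 mg it stood at 1.25 and 1.23 CPM. In the AngII arm the higher values were those at 5 mg, with 0.976 and 3.47 CPM in vehicle and 7.08 and 10.5 CPM at 5 mg. The sham vehicle pair held the highest values of these groups, and every other library in them lay below both. The gene lies on the minus strand of chromosome 5 at 144264526 to 144358112 of GRCm38. It overlaps Bri3 on the other strand, which stood at 25.1 and 22.9 CPM in vehicle and 23.9 and 15.0 CPM at 5 mg, and the strand setting of the counting is not known. Of its transcript's 31-base words 3.5% occur in other genes, 2.8% in Dmrt1i, so no near-identical copy was found. Its fall kept its sign in all 24 alternative analyses and passed in 15 of them. With any of the 4 compared libraries left out it did not pass, at log2 fold changes of -5.36 to -4.13 (adjusted p 0.0551 to 0.225).

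**Figure D2:**
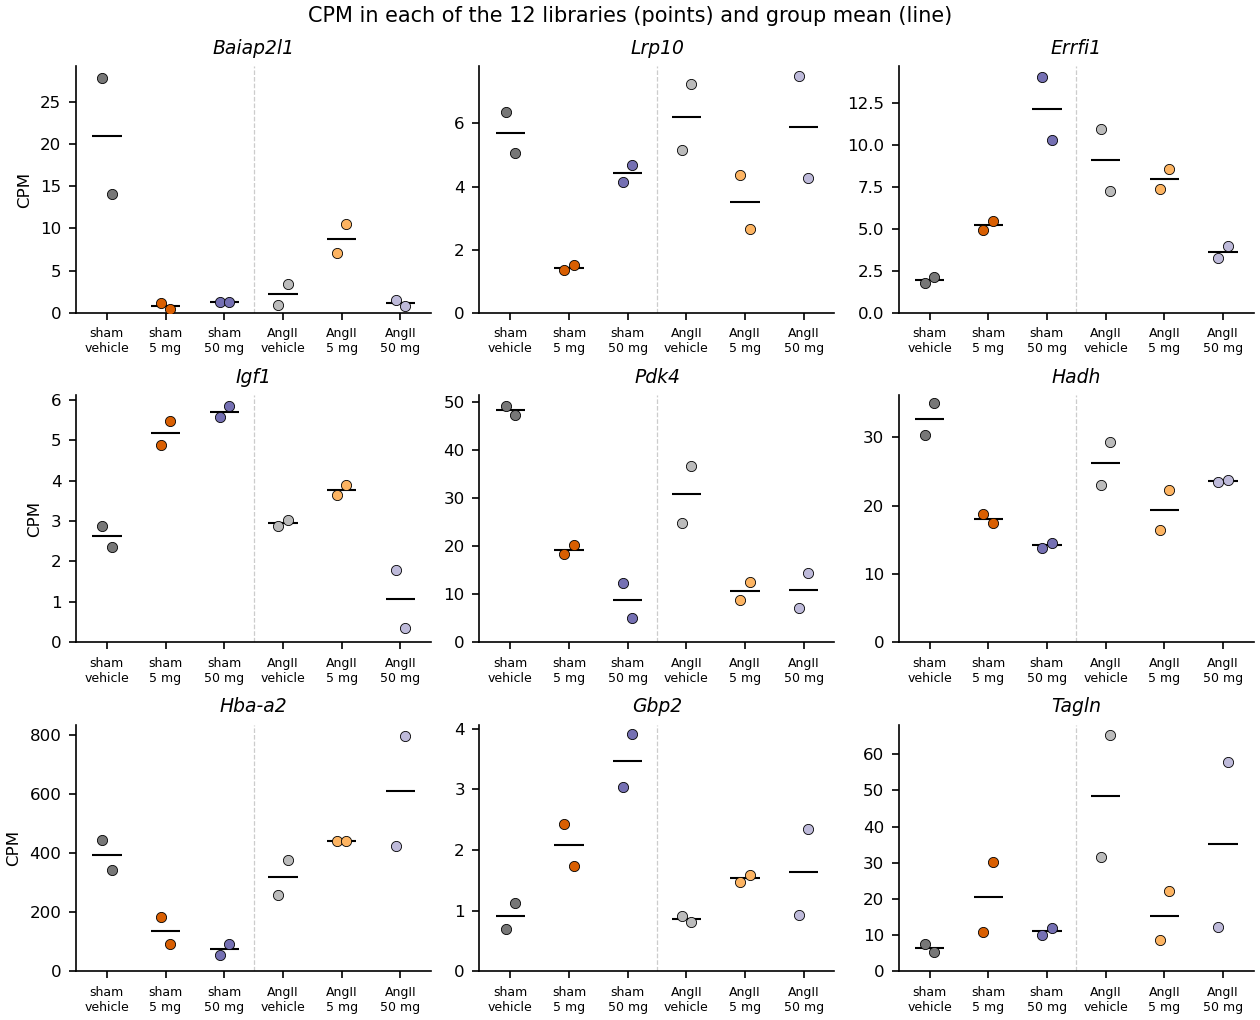
CPM (y axis, linear, from 0) of 9 genes in each of the 12 libraries (points) with the group mean (line), in sham and then AngII groups by dose (x axis). Baiap2l1 is highest in the sham vehicle pair; Lrp10, Pdk4, Hadh and Hba-a2 are lower at 5 mg than in vehicle in both sham libraries, and Errfi1, Igf1, Gbp2 and Tagln higher.

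Gm49394 and Igf2 shared a locus, and their counts lay in opposite directions between the groups. Gm49394, a predicted gene on chromosome 7 at 142650769 to 142669942 of GRCm38, overlaps Igf2, the gene of the fetal growth factor IGF2, on the same strand, and 76.7% of its 31-base words are also in Igf2. It held 183 and 375 counts in the vehicle libraries and 0 in both 5 mg libraries, at least 35.3-fold lower with a floor of 12 counts over the 5 mg pair (edgeR adjusted p = 0.0360). Igf2 itself held 18 and 37 counts in vehicle and 146 and 243 at 5 mg, a log2 fold change of 3.22 ± 0.772 that did not pass (adjusted p = 0.804). The sum of both was 3.88 and 5.15 CPM in vehicle and 3.23 and 4.41 CPM at 5 mg, which overlap, with a log2 fold change of -0.24 and an adjusted p of 1. The fall of Gm49394 and the higher Igf2 count at 5 mg thus do not show a change of the locus as a whole. At 50 mg, where Gm49394 was at 0 as well, Igf2 reached 8.66 and 12 CPM, and these lie above the summed values of all 4 libraries compared. In AngII hearts Gm49394 held 0 counts in vehicle and at 5 mg, and 166 and 290 counts at 50 mg. Its absence was therefore not particular to the 5 mg pair.

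Overlapping names with opposite counts were found at 3 further loci, chosen after their values were seen. Gm49388 held 70 and 85 counts in vehicle and 0 in both 5 mg libraries, while Hsd3b7, an enzyme of bile acid synthesis that it overlaps, held 13 and 8 and then 40 and 73. Gm49388 also held 0 counts in sham 50 mg and in all AngII groups, so only the sham vehicle pair had any. Mrpl53, a mitochondrial ribosomal protein gene, held 65 and 215 counts in vehicle and 453 and 304 at 5 mg, against 422 and 451 and 87 and 59 for Gm42688. Vps51, a subunit of a vesicle tethering complex, held 69 and 130 and then 173 and 158 counts, against 153 and 143 and then 20 and 25 for Tm7sf2, an enzyme of cholesterol synthesis. Summed over the 2 genes, Hsd3b7 and Gm49388 stood at 1.60 and 1.16 CPM in vehicle and 0.886 and 1.33 CPM at 5 mg, Mrpl53 and Gm42688 at 9.39 and 8.32 CPM in vehicle and 12 and 6.59 CPM at 5 mg, and Vps51 and Tm7sf2 at 4.28 and 3.41 CPM in vehicle and 4.27 and 3.32 CPM at 5 mg. All 3 sums overlapped between the groups. Joined with every gene linked to them by exons on the same strand (Setd1a, Ccdc142, and Zfpl1 with Gm28374), the log2 fold changes were -0.05, 0.06 and -0.12, and neither these units nor any of the 6 genes passed.

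**Figure D3:**
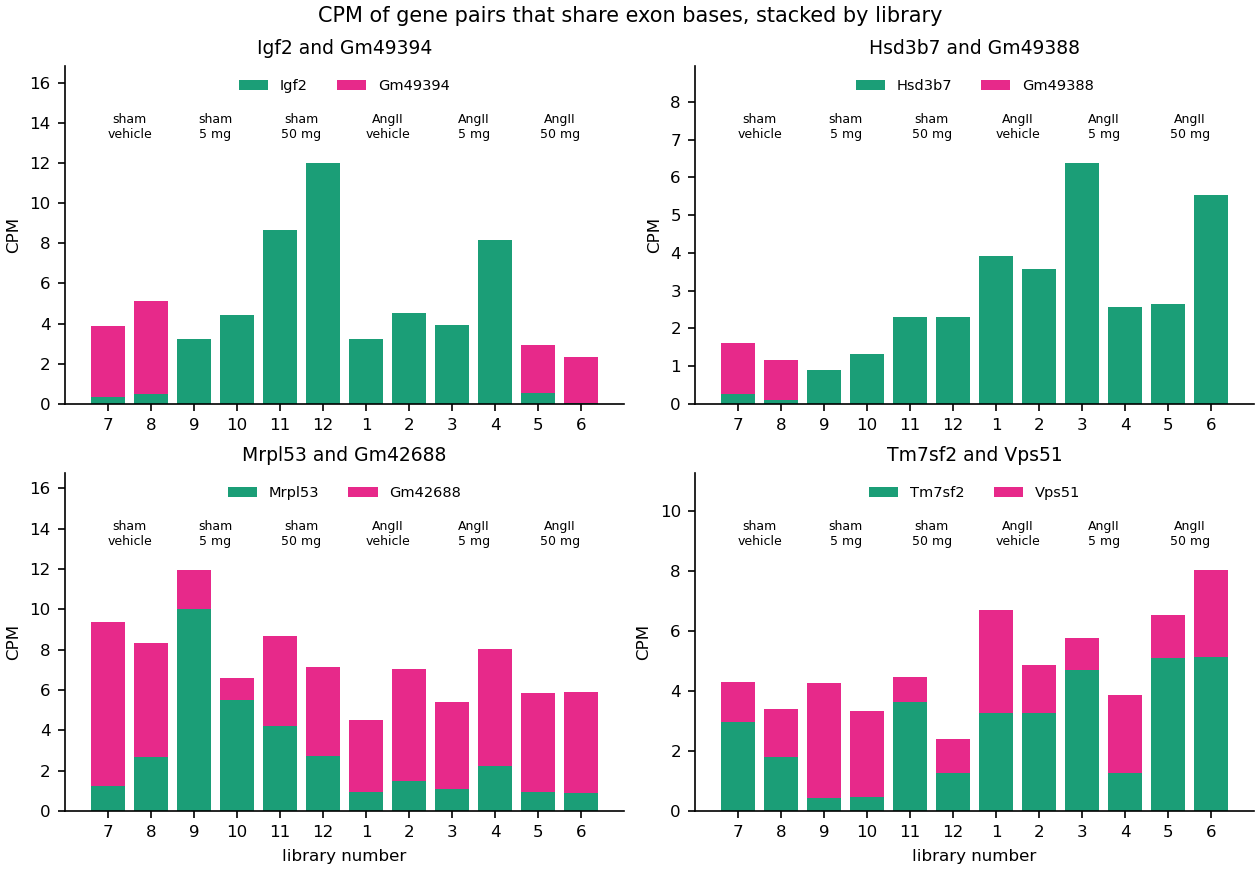
CPM (y axis, from 0) of 4 pairs of overlapping genes, stacked, in each library by number (x axis). In the sham vehicle libraries 7 and 8 the predicted partners Gm49394, Gm49388 and Gm42688 hold most of each stack, and in the 5 mg libraries 9 and 10 the named genes Igf2, Hsd3b7 and Mrpl53 do.

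Gm2274, annotated as an unprocessed pseudogene on chromosome 14 at 26156036 to 26163648, held 38 and 71 counts in vehicle and 0 in both 5 mg libraries, at least 6.90-fold lower with the same floor (edgeR adjusted p = 0.0360). Its sequence is almost wholly contained in Anxa11, an annexin gene that holds 98.8% of its 31-base words. Anxa11 stood at 3.14 and 4.54 CPM in vehicle and 2.77 and 2.49 CPM at 5 mg, without overlap, and did not pass. Since reads of the pseudogene and its parent cannot be told apart over that sequence, the fall of Gm2274 is uncertain as a statement about that gene. At 50 mg it was counted again, at 0.460 and 0.908 CPM.

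Among the 24 genes with the smallest p that the naming rule lists, these 3 included, 18 lay lower at 5 mg and 6 higher. All 24 were free of overlap between the groups, which their selection by p makes likely, and 15.6% and 14% of all genes shared that property. Lrp10, a lipoprotein receptor-related protein, stood at 6.35 and 5.06 CPM in the vehicle libraries and 1.35 and 1.51 CPM in the 5 mg libraries (log2 fold change -1.99 ± 0.385, edgeR adjusted p = 0.337), and its 50 mg values of 4.16 and 4.69 CPM lay between. Irx3, a homeobox factor of the ventricular conduction system, stood at 7.75 and 6.04 CPM in vehicle and 1.11 and 2.49 CPM at 5 mg (log2 fold change -1.93 ± 0.483, adjusted p = 0.867). Both genes were lower in each treated library than in either vehicle library, but neither passed over all genes. Of 10 tested genes of the atrial and conduction list, 4 lay lower and 2 higher without overlap (40% lower and 20% higher, against 15.6% and 14% of all genes), at a median log2 fold change of -0.41 (lowest at -0.94 without 5 mg number 10 and highest at -0.39 without AngII vehicle number 2). With the gene at 0 in both 5 mg libraries put at the floor of 12 counts the median was -0.10, and no member passed.

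Further genes on the lower side included transporters and enzymes. Vldlr, a lipoprotein receptor that feeds fatty acids to heart muscle, stood at 15.0 and 13.6 CPM in the vehicle libraries and 6.47 and 8.26 CPM in the 5 mg libraries (log2 fold change -0.95 ± 0.288). The zinc importer gene Slc39a1 stood at 4.36 and 6.22 CPM in vehicle and 2.13 and 2.58 CPM at 5 mg. Tpp2, a large cytosolic peptidase, and Eme2, a subunit of a DNA endonuclease, lay lower by log2 fold changes of -1.02 and -1.45, but Eme2 shares exons with Mapk8ip3 and both summed gave -0.14. Vldlr also stood low at 50 mg (5.37 and 6.01 CPM), while Slc39a1 and Tpp2 stood at 6.23 and 6.34 and at 3.66 and 3.25 CPM there, close to their vehicle values. Pcdhgc3, a clustered protocadherin, had a log2 fold change of -1.96 but shares exons with the other genes of its cluster, and these summed gave -0.12.

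On the higher side, Errfi1, a feedback inhibitor of the EGF receptor, stood at 1.77 and 2.15 CPM in the vehicle libraries and 4.92 and 5.50 CPM in the 5 mg libraries. Both treated libraries lay above 2.15 CPM, the higher of the vehicle values, and the log2 fold change was 1.41 ± 0.318 (edgeR adjusted p = 0.786). At 50 mg it stood at 14.1 and 10.3 CPM, above every vehicle and 5 mg library. Ebf1, a transcription factor of B cells and fat cells, stood at 1.23 and 2.67 CPM in vehicle and 5.27 and 6.43 CPM at 5 mg (log2 fold change 1.57). The splicing factor gene Prpf3, the membrane contact protein gene Esyt1 and the cytoskeletal linker gene Frmd5 lay higher by 1.09, 1.17 and 1.59. None of the higher genes named in this paragraph passed over all genes (edgeR adjusted p from 0.786 to 1).

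Genes of fatty acid use lay lower at 5 mg almost throughout, though none passed over all genes. Of 33 tested, 32 had a log2 fold change below 0, against 8313 of all 16723 genes. In 18 (54.5%, against 15.6% of all genes) both 5 mg libraries lay below both vehicle libraries, and in none above. At an unadjusted p under 0.05, 6 lay lower and none higher, against 1.88% and 2.24% of all genes. The median log2 fold change was -0.38 against 0 over all genes. The members share libraries and a pathway, so they are not independent of each other.

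Hadh, which carries out the third step of mitochondrial beta-oxidation, stood at 30.3 and 35.1 CPM in the vehicle libraries and 18.8 and 17.4 CPM in the 5 mg libraries (log2 fold change -0.85 ± 0.274). Pdk4, the brake on glucose oxidation and a target of fatty acid signalling, stood at 49.3 and 47.5 CPM in vehicle and 18.3 and 20.3 CPM at 5 mg (log2 fold change -1.33 ± 0.437). Mlycd, which removes malonyl-CoA and so frees fatty acid entry into mitochondria, stood at 16.7 and 14.9 CPM in vehicle and 10.3 and 9.44 CPM at 5 mg. The vehicle libraries lay close together for these 3 genes, and the treated ones too. Acot2 and Acot1, thioesterases that split acyl-CoA, had log2 fold changes of -1.16 and -1.66, but share sequence with each other and are uncertain. Slc27a1, a fatty acid importer of the cell membrane, stood at 20.1 and 10.5 CPM in vehicle and 8.82 and 5.05 CPM at 5 mg, and Cd36, the main importer of heart muscle, at 74.0 and 72.1 CPM in vehicle and 54.8 and 45.8 CPM at 5 mg. Mlycd, Slc27a1 and Cd36, the last with an unadjusted p above 0.05, were picked for their roles after their values were seen. The list's median stayed within -0.52 to -0.26 with any library left out.

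At 50 mg, 30 of the 33 fatty acid genes lay below both vehicle libraries in both libraries and none above, against 20.7% of all genes below and 21.9% above, and the list's median log2 fold change against the same vehicle pair was -0.75. This was not particular to fatty acid genes. At 50 mg 18 of 20 sarcomere genes lay below both vehicle libraries and 1 above, at a median of -0.81. For the 41 nuclear genes of the respiratory chain it was 37 and 0, at a median of -0.49. Of 23 calcium and channel genes 9 lay below and 1 above. Both doses share the vehicle libraries, so these values are not independent of those at 5 mg. Hadh stood at 13.8 and 14.6 CPM and Pdk4 at 12.4 and 4.96 CPM there, below every library of the 4 compared. In the AngII arm, which shares no library with the sham pairs, 6 of the 33 lay lower at 5 mg without overlap and 1 higher, against 11.5% of all genes in each direction, and the median was 0.04. Pdk4 lay lower at 5 mg there too, with 24.8 and 36.8 CPM in AngII vehicle and 8.86 and 12.5 CPM in AngII 5 mg (log2 fold change -1.53). For none of the 33 did the interaction, the sham effect minus the AngII effect, pass.

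Transcripts of red cells lay lower at 5 mg as well. The summed level of the 11 listed genes, 10 of them tested, was 1753 and 1318 CPM in vehicle and 768 and 367 CPM at 5 mg. In 7 of the 10 both treated libraries lay below both vehicle libraries (70%, against 15.6% of all genes), and 6 had an unadjusted p under 0.05, all lower (1.88% of all genes), with a median log2 fold change of -1.42 (lowest at -2.01 without 5 mg number 9 and highest at -0.97 without 5 mg number 10). Hba-a2, an alpha-globin gene, stood at 445 and 343 CPM in the vehicle libraries and 182 and 91.2 CPM in the 5 mg libraries (log2 fold change -1.53 ± 0.436, edgeR adjusted p = 1), but shares most of its sequence with Hba-a1. Alas2, the red-cell enzyme that starts haem synthesis, picked after its values were seen, stood at 10.2 and 8.76 CPM in vehicle and 6.18 and 2.32 CPM at 5 mg, lowest in number 10. In bulk RNA, fewer cells of a type and less RNA per cell cannot be told apart, and the part of blood left in the chambers was not tested. Sham 50 mg was also low, with a sum of 294 and 615 CPM. In the AngII arm the sum was 1039 and 1594 CPM in vehicle and 1564 and 2121 CPM at 5 mg, a median log2 fold change of 0.46. The interaction did not pass for any red cell gene (Hba-a2 -2.0, edgeR adjusted p = 1).

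Genes of contraction, calcium handling and respiration lay mostly lower, by small amounts. Of 20 sarcomere genes 19 lay below 0, against 8313 of all 16723 genes. Without overlap 7 lay lower (35%, against 15.6% of all genes), and the median log2 fold change was -0.24. Of 23 calcium and channel genes 11 lay lower and 2 higher without overlap (47.8% lower and 8.7% higher, against 15.6% and 14% of all genes), with a median of -0.24 (lowest at -0.36 without vehicle number 8 and highest at -0.15 without vehicle number 7). Atp2a2, the calcium pump SERCA2, stood at 189 and 195 CPM in vehicle and 157 and 124 CPM at 5 mg, and Jph2, which holds the calcium release units in place, at 68.3 and 77.6 CPM in vehicle and 59.2 and 39.9 CPM at 5 mg. The lower treated values of both genes were those of number 10, and no calcium gene had an unadjusted p under 0.05.

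Of 41 nuclear genes of the respiratory chain 39 lay below 0, against 8313 of all 16723 genes. Without overlap 13 lay lower (31.7%, against 15.6% of all genes), and the median log2 fold change was -0.23. Ndufv2, a subunit of complex I, stood at 65.2 and 45.6 CPM in vehicle and 43.8 and 34.5 CPM at 5 mg, and Cox5a, a subunit of complex IV, at 73.3 and 53.7 CPM in vehicle and 52.8 and 45.1 CPM at 5 mg. The 13 protein genes of the mitochondrial genome itself lay on the other side, all above 0 with a median of 0.20, and all overlapped between the groups. That median turned to -0.06 without vehicle number 8 and -0.03 without 5 mg number 9, and was 0.51 without vehicle number 7. Ribosomal protein genes (16 of 42 lower without overlap, or 38.1%, median -0.07) and proteasome genes (10 of 31, or 32.3%, median -0.07) lay closer to 0. No member of the respiratory chain, mitochondrial genome, ribosomal or proteasome lists had an unadjusted p under 0.05. With 1 library left out the sarcomere median ranged from -0.45 to -0.04, nearest to 0 without vehicle number 7, and that of the respiratory chain from -0.42 to -0.06, nearest to 0 without 5 mg number 10.

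None of the markers of cardiac growth passed, and most overlapped between the groups. Nppa, which encodes a natriuretic peptide induced by load on the heart, stood at 324 and 699 CPM in the vehicle libraries and 436 and 518 CPM in the 5 mg libraries. The vehicle libraries spanned the treated ones, and the same held for Nppb (log2 fold change -0.28 ± 0.331). Ankrd1, a stress-responsive sarcomere gene, overlapped between the groups (-0.09 ± 0.413). Acta1, the skeletal actin gene of fetal and stressed heart, stood at 923 and 741 CPM in vehicle and 853 and 462 CPM at 5 mg. Myh6, the adult cardiac myosin gene, stood at 2038 and 1407 CPM in vehicle and 1215 and 1395 CPM at 5 mg (log2 fold change -0.40 ± 0.472) and Myh7, its slow counterpart, at 109 and 87.7 CPM in vehicle and 82.9 and 88.2 CPM at 5 mg, with part of their sequence shared. Of the 19 tested genes of this programme, 6 lay lower and 1 higher without overlap (31.6% lower and 5.26% higher, against 15.6% and 14% of all genes), and the median was -0.20 (lowest at -0.24 without vehicle number 8 and highest at -0.05 without 5 mg number 10).

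Matrix genes and the IGF axis had medians near 0. Col1a1 and Col3a1, the main fibrillar collagens, had log2 fold changes of -0.37 ± 0.454 and -0.02 ± 0.398, and Postn, a marker of activated fibroblasts, 0.17 ± 0.473. Of 38 matrix genes 5 lay higher and 1 lower without overlap (2.63% lower and 13.2% higher, against 15.6% and 14% of all genes), and the list's median was 0.11 (lowest at -0.20 without 5 mg number 10 and highest at 0.61 without vehicle number 8). Ltbp2, which binds to elastic fibres, stood at 0.309 and 0.150 CPM in the vehicle libraries and 1.4 and 1.23 CPM in the 5 mg libraries (log2 fold change 2.53 ± 0.627, edgeR adjusted p = 0.856), and Cilp, a matrix protein that binds TGF-beta, at 0 and 0.0625 CPM in vehicle and 0.820 and 0.309 CPM at 5 mg. Both rest on low counts. Igf1 stood at 2.87 and 2.36 CPM in vehicle and 4.87 and 5.48 CPM at 5 mg, without overlap, with a log2 fold change of 0.99 ± 0.523. The receptors Igf1r and Igf2r overlapped between groups, at 0.22 and 0.09, and the median of 20 IGF axis genes was 0.07 (lowest at -0.08 without 5 mg number 10 and highest at 0.23 without vehicle number 8).

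Interferon-stimulated genes lay mostly higher at 5 mg. Of 25 tested, 10 lay higher and 2 lower without overlap (40% and 8%, against 14% and 15.6% of all genes). An unadjusted p under 0.05 was found for 5, all higher (2.24% of all genes). The median log2 fold change was 0.46, and 0.26 without number 10. Oas1a, a sensor of double-stranded RNA, stood at 0.829 and 0.437 CPM in the vehicle libraries and 2.37 and 2.22 CPM in the 5 mg libraries, and Gbp2, a guanylate-binding protein gene, at 0.694 and 1.12 CPM in vehicle and 2.44 and 1.74 CPM at 5 mg. Usp18 and Isg15, which remove and encode the ubiquitin-like modifier ISG15, stood at 0.386 and 0.750 CPM in vehicle and 1.71 and 1.53 CPM at 5 mg, and at 1.00 and 0.925 CPM in vehicle and 1.73 and 2.38 CPM at 5 mg. For each of these genes the treated libraries lay above the vehicle ones, on levels of a few CPM, and none passed over all genes. Oas1a shares 68.7% of its 31-base words with Oas1g, and Isg15 was picked after its values were seen. In AngII hearts the list's median at 5 mg was 0.04.

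Immediate-early genes, which respond within minutes to growth and stress stimuli, lay higher without overlap in 9 of 25 and lower in none (0% lower and 36% higher, against 15.6% and 14% of all genes), with a median of 0.37 (lowest at 0.24 without 5 mg number 10 and highest at 0.41 without vehicle number 7). Egr2, a zinc finger factor, held 0 and 0 counts in vehicle and 56 and 20 at 5 mg, at least 8.33-fold higher with a floor of 12 counts over the vehicle pair. Atf3, a stress-induced factor, stood at 1.43 and 0.987 CPM in vehicle and 2.21 and 2.61 CPM at 5 mg. These were the only members with an unadjusted p under 0.05, which 2.24% of all genes had for being higher. Of 19 glucocorticoid-responsive genes 4 lay higher and 2 lower without overlap (21.1% and 10.5%, against 14% and 15.6% of all genes). The median log2 fold change was 0.18, with 13 members above 0 and 6 below. Errfi1, Fam107a and Tsc22d3 lay higher and Pdk4 lower at an unadjusted p under 0.05, against 2.24% and 1.88% of all genes. Tsc22d3, which encodes the anti-inflammatory protein GILZ, stood at 11.1 and 10.8 CPM in vehicle and 19 and 19 CPM at 5 mg, and at 36.0 and 34.2 CPM at 50 mg.

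Markers of vessel walls and of macrophages lay mostly higher. Of 14 smooth muscle and pericyte markers 6 lay higher without overlap and 1 lower (7.14% lower and 42.9% higher, against 15.6% and 14% of all genes), at a median of 0.48. Tagln, a smooth muscle actin-binding protein, stood at 7.41 and 5.22 CPM in the vehicle libraries and 10.9 and 30.2 CPM in the 5 mg libraries, and Acta2, smooth muscle actin, at 14.9 and 21.1 CPM in vehicle and 22.0 and 50.7 CPM at 5 mg. Number 10 held the highest value of both, and without it the list's median was 0.27. In AngII hearts Tagln stood at 31.6 and 65.2 CPM in vehicle and 8.68 and 22.1 CPM at 5 mg, and the list's median was -0.48. The interaction for Tagln was 3.36 ± 0.964, edgeR adjusted p = 1.

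All 15 macrophage markers had log2 fold changes above 0 (8025 of all 16723 genes did), at a median of 0.41. Only 4 were free of overlap (26.7%, against 14% of all genes) and none had an unadjusted p under 0.05. C1qb, a complement subunit made by tissue macrophages, stood at 3.70 and 6.85 CPM in vehicle and 7.57 and 7.66 CPM at 5 mg, with vehicle number 7 lowest. Without number 7 the list's median was 0.14, and it was 1.04 without number 8. Of 15 endothelial markers 4 lay higher and none lower without overlap (0% lower and 26.7% higher, against 15.6% and 14% of all genes), at a median of 0.13 (lowest at 0.08 without 5 mg number 10 and highest at 0.33 without vehicle number 7); Ptprb, an endothelial phosphatase, stood at 2.47 and 1.4 CPM in vehicle and 3.72 and 4.05 CPM at 5 mg, and Emcn at 2.76 and 2.29 CPM in vehicle and 5.83 and 3.09 CPM at 5 mg. Fibroblast markers had a median of 0.00 and 1 of 12 higher without overlap (8.33%, against 14% of all genes); the median was lowest at -0.39 without vehicle number 7 and highest at 0.39 without vehicle number 8. Airway secretoglobins of the lung list were present at trace levels: Scgb1a1 stood at 0.617 and 0.1 CPM in vehicle and 1.51 and 1.89 CPM at 5 mg, and was at 0 in both 50 mg libraries. Of 6 tested lung genes 4 lay above 0 and 2 below. The list's median log2 fold change of 2.04 turned to -0.75 without 5 mg number 10.

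**Figure D4:**
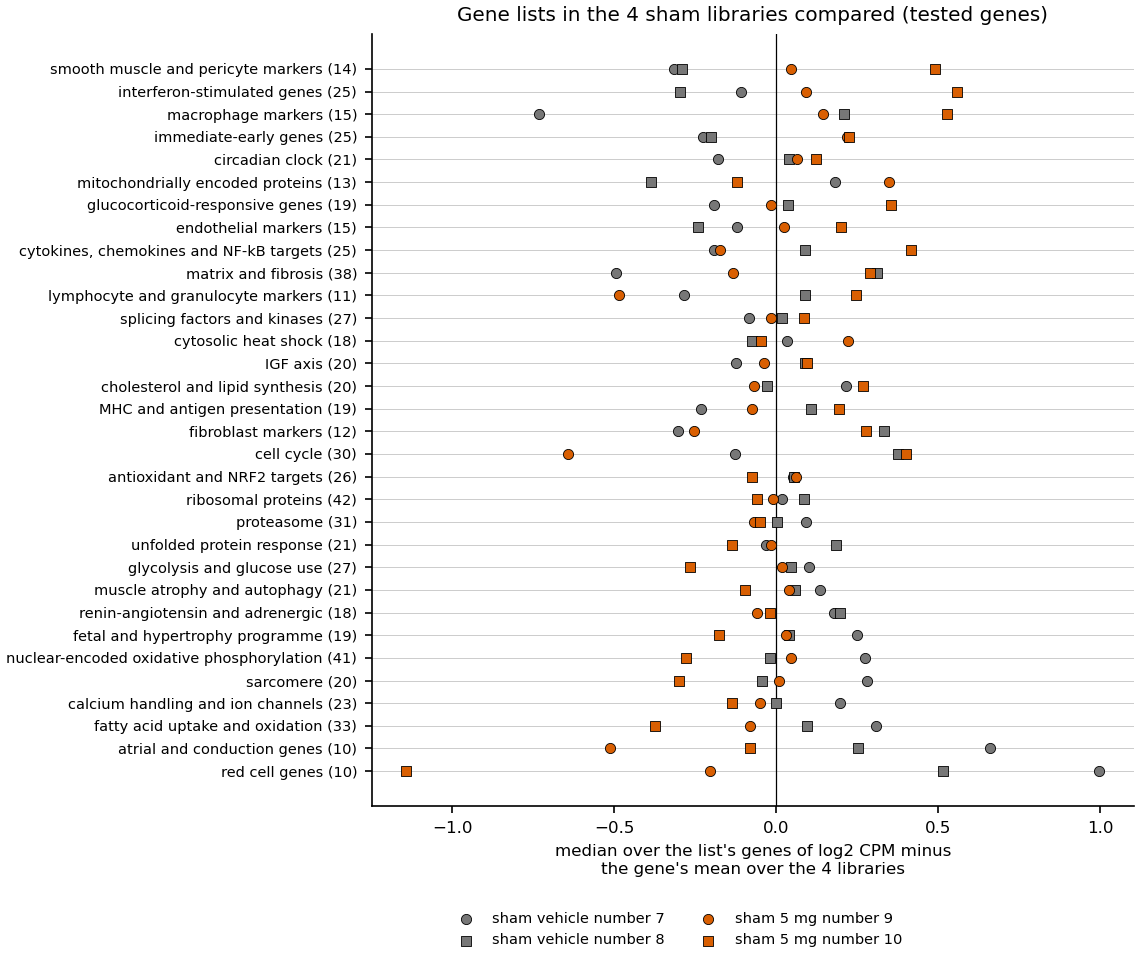
For each gene list with at least 10 tested genes (rows), the median over its genes of log2 CPM minus the gene's mean over the 4 libraries (x axis), with 1 point per library: circles and squares for the 2 libraries of sham vehicle and of sham 5 mg. Red cell genes and fatty acid genes lie lower in both treated libraries, and the liver list is left out because of number 10.

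In all, none of the 750 tested members of the 40 gene lists passed over all genes at 5 mg. An unadjusted p under 0.05, in either direction, was found for 62 of the 750, against 689 of all 16723 genes (2.24% higher and 1.88% lower). The lists were chosen with earlier results of these data known, so nothing is concluded from that difference. Of the 62, 13 were liver plasma protein transcripts, whose list median was 0 without number 10. Further members at that level lay in several lists. Pde3a, the phosphodiesterase that degrades cyclic AMP in heart muscle, stood at 4.71 and 3.22 CPM in vehicle and 1.51 and 2.11 CPM at 5 mg. The cell cycle kinases Plk1 and Aurka stood at 0.559 and 0.95 CPM in vehicle and 0.177 and 0.254 CPM at 5 mg, and at 0.791 and 1.06 CPM in vehicle and 0.0886 and 0.291 CPM at 5 mg, all under 2 CPM. Hlf, a clock output factor, stood at 2.33 and 2.60 CPM in vehicle and 4.94 and 4.12 CPM at 5 mg, with a log2 fold change of 0.88 ± 0.345.

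The higher dose was set directly against the lower one to ask what 50 mg did beyond 5 mg. edgeR called 12 genes, 7 higher and 5 lower at 50 mg, 0.0718% of those tested. Several are, by name, a ribosomal protein gene (Rpl21), pseudogenes of such genes or predicted genes. Apart from Gm2274, the sequence they share with other genes was not examined. Rgcc, a regulator of the cell cycle induced by complement, rose from 3.83 and 4.88 CPM at 5 mg to 31.3 and 31.4 CPM at 50 mg (log2 fold change 2.84 ± 0.420, edgeR adjusted p = 0.0340), against 6.13 and 6.55 CPM in vehicle. Kcnj14, an inward-rectifier potassium channel gene, fell from 8.86 and 3.58 to 0.533 and 0.223 CPM (log2 fold change -4.06 ± 0.612, adjusted p = 0.0340), and vehicle stood at 5.59 and 7.5 CPM. Kcnj14 shares 35.6% of its 31-base words with Gm5522. Scgb1a1, listed above, fell from 68 and 104 counts to 0 in both 50 mg libraries (adjusted p = 0.0340). For Rgcc and Kcnj14 the 5 mg libraries lay near vehicle, and the 50 mg pair stood apart. Number 12 held 10.8% ribosomal RNA, and with number 11 or number 12 left out 3 genes were called, neither Rgcc nor Kcnj14 among them. Without 5 mg number 9 only Rpl21 was called, and without AngII 5 mg number 3 or 4, which belong to neither group compared, 30 and 33 genes were. Baiap2l1 did not pass between the doses (log2 fold change 0.63 ± 0.592, adjusted p = 0.876).

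Whether the 5 mg effect differed between sham and AngII hearts was tested as the interaction, the sham effect minus the AngII effect, between the 2 arms, whose groups share no library. It passed for 1 gene, Baiap2l1, 0.00598% of those tested. The difference of the effects was -6.69 ± 0.852 on the log2 scale (edgeR adjusted p = 0.0473), from a sham effect of -4.71 and an AngII effect of 1.99. It did not pass without sham vehicle number 7, sham 5 mg number 9 or 10, or sham 50 mg number 11 or 12, nor with limma-voom, with at least 1 CPM required in 4 libraries or with mitochondrial, ribosomal and haemoglobin genes left out. Without AngII 5 mg number 4, 10 genes passed, Baiap2l1 among them. For Lrp10, Errfi1 and Igf1 the sham effects were -1.99, 1.41 and 0.99 and the AngII effects -0.82, -0.19 and 0.35, with an interaction adjusted p of 1 for each. For Hadh the effects were -0.85 in sham and -0.44 in AngII, and its interaction did not pass either.

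**Figure D5:**
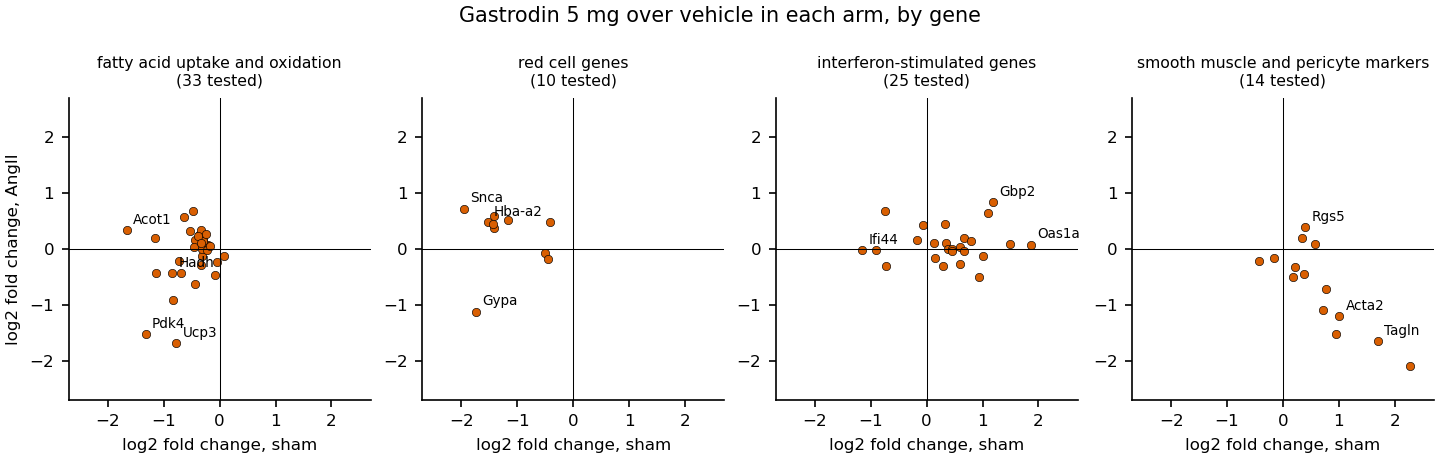
Log2 fold change of gastrodin 5 mg over vehicle in AngII hearts (y axis) against that in sham hearts (x axis) for the tested genes of 4 lists, 1 point per gene. In sham, 32 of the 33 fatty acid genes and all 10 red cell genes lie left of 0, while in AngII hearts the red cell genes lie mostly above 0.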

How the data were processed

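Mouse heart RNA for 12 libraries, isolated on RNeasy Plus Mini columns, was prepared with TruSeq RNA reagents and sequenced as paired ends on a NovaSeq, per the labels' protocols. HISAT2 2.2.1, StringTie 2.1.3 and GRCm38.p6 are named in the submitters' processing notes; for the counting program, annotation release, strand setting and multi-mapping reads, nothing is given in the sources used here. Per the file headers, the deposited matrix has counts for 27504 genes (51 without a symbol), not normalised by the authors; values of 4 occurred 2489 times and values of 3 830 times in the 4 libraries compared, so counts were taken to step by 4 and a floor of 3 steps, or 12 counts over a group, used for folds against 0. The TPM values deposited by the authors were used in 1 alternative only.

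The matrix was read into R 4.3.3 and fitted by edgeR 4.0.16 with filterByExpr by group (16723 genes), TMM scaling, 1 mean per group over all 12 libraries (6 residual degrees of freedom, biological coefficient of variation 0.476) and the 2-sided quasi-likelihood F-test, with Benjamini-Hochberg adjusted p under 0.05 as the call. Contrasts were sham 5 mg against sham vehicle, sham 50 mg against sham 5 mg, and the interaction with the AngII arm. The standard error is the log2 fold change over the root of F. The procedure was tested on simulated data, where the share of calls made among unchanged genes was above the threshold. Positions, overlaps and shared 31-base words are from GENCODE M21 on GRCm38. Alternatives used DESeq2 1.42.0, limma 3.58.1, other filters, samples and units, and each library left out. The 40 lists and the genes compared were chosen with earlier results of these data known. The naming rule took the called genes and then the smallest p among genes averaging a log2 CPM of 1 or more, to 24 in all, with uncalled predicted genes skipped; 13 fixed growth, matrix and IGF genes; the 4 smallest p of each list; and, for the other contrasts, all called genes if 5 or fewer, otherwise the 5 smallest p at that level with predicted genes skipped. Fewer are printed, and genes outside the rule were chosen after their values were seen.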

Additional observations from a re-analysis of the deposited data

Results flagged for a closer look

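In the main fit, the effect of 5 mg on Baiap2l1 differed between the arms. It was -4.71 on the log2 scale in sham hearts and 1.99 in AngII hearts, a difference of -6.69 ± 0.852 (SE) with an edgeR adjusted p of 0.0473. In sham hearts 2 of 2 treated libraries lay below both vehicle libraries, and in AngII hearts 2 of 2 lay above both. The vehicle libraries themselves stood at 27.8 and 14.1 CPM in sham and 0.976 and 3.47 CPM in AngII. The difference between the arms did not pass with limma-voom or with at least 1 CPM required in 4 libraries. Nor did it pass with mitochondrial, ribosomal RNA and haemoglobin genes left out. Its dependence on single libraries is given above.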

How the results depend on the processing

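No paired analysis was possible because the library numbers run from 1 to 12 and the groups share none. Of 187 single genes followed that did not pass in sham 5 mg against vehicle, 157 kept their sign in all 24 alternatives and 27 passed in at least 1. The count of 3 genes called became 32 with the DESeq2 Wald test, 152 without a filter, 1 with limma-trend on log2(TPM + 1), and 0 with limma-voom (507 at an unadjusted p under 0.05), with at least 1 CPM in 4 libraries (348), with the 4 libraries alone (472) and with counts divided by 4 (454). With 1 library left out it ranged from 0 to 4. For 50 mg against 5 mg the 12 calls became 154 with the Wald test, 236 without a filter, 4 with limma-voom and 6 with counts divided by 4, and ranged from 1 to 33 with 1 library left out. The single interaction call became 14 with the Wald test, 93 without a filter, 2 on TPM, and 0 with limma-voom (518), at least 1 CPM (242) or mitochondrial, ribosomal RNA and haemoglobin genes left out (508), and ranged from 0 to 10 with 1 library left out. The 0 list members called became 7 with the Wald test, 24 without a filter and 1, Igf2, with the 6 sham libraries, and ranged from 0 to 1 with 1 library left out. Division by 4 was chosen after seeing the data. Where a count moved, the cause was not tested. Precision is limited by 2 libraries per group and by the 6.34 to 10.4% of counts in the 4 libraries that lie outside mitochondrial genes, their copies and ribosomal RNA.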
